A study of Mus musculus with 12 samples.

Results

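The averaged effect of gemcitabine was measured in pancreatic ductal adenocarcinomas of KPC mice, as the mean of the gemcitabine-treated groups minus the mean of the untreated groups. All 12 libraries of the series entered it, 6 from treated and 6 from untreated mice, and 24065 of the 52636 genes in the files had enough counts to be tested. The treated groups were KPC mice labelled heterozygous for Cdh11 (+/-) and given gemcitabine, and KPC mice labelled wild-type for Cdh11 (+/+) and given gemcitabine. The untreated groups were KPC mice heterozygous for Cdh11 and KPC mice wild-type for Cdh11. Each group held 3 mice on a mixed C57BL/6 and 129 background, and every library was made from snap-frozen tumour tissue. The labels give no age, drug dose, schedule or time between the last dose and collection. KPC names a genetic model of pancreatic cancer in which Cre recombinase switches on tumour-driving alleles in the pancreatic epithelium, among them a mutant Trp53, so all 4 groups carry these alleles. The labels do not name the Cre driver. Because genotype was balanced across treatment in the labels, the average weights both genotypes equally.

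Gemcitabine is a deoxycytidine analogue and a standard drug against pancreatic cancer. Cells import it through nucleoside transporters, deoxycytidine kinase phosphorylates it, and its phosphates inhibit ribonucleotide reductase and enter DNA, where they stop the replication fork. Stalled forks activate checkpoint kinases, and cells with working p53 answer with p53 target genes such as Cdkn1a. Cdh11 encodes cadherin 11, through which fibroblasts and other mesenchymal cells adhere to each other.

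Libraries held between 39388328 and 56559413 expected counts. The total, the share of 7SL and 7SK RNA, the share of mitochondrial genes and the share of the 10 most abundant genes gave exact permutation p-values between 0.385 and 0.915 for treatment (two-sided, labels permuted within genotype in 400 regroupings, smallest possible p 0.005). Xist exceeded the Y-linked genes in 0 of 3 treated libraries labelled heterozygous and 3 of 3 treated libraries labelled wild-type, against 1 of 3 and 2 of 3 untreated libraries. Libraries with Xist above the Y-linked genes numbered 3 of 6 against 3 of 6 over treatment, but their split differed between the genotypes within it, and the average did not cancel them. Xist had an averaged log2 fold change of -4.55, with an unadjusted p under 0.05, and -0.15 without untreated heterozygous mouse 1. The 4 Y-linked genes had an averaged median of -3.04, and 0.72 without untreated wild-type mouse 2. The duct keratins Krt8 and Krt18 were detected at 809 to 2497 and 871 to 1998 CPM (counts scaled to the same library total) in treated tumours, against 934 to 1692 and 715 to 1530 CPM in untreated tumours, and Epcam at 221 to 311 against 108 to 520 CPM. Cdh11 had 108, 142 and 72.0 CPM in treated tumours labelled heterozygous and 142, 62.2 and 123 CPM in treated tumours labelled wild-type, against 148, 115 and 73.7 CPM in untreated heterozygous and 225, 283 and 165 CPM in untreated wild-type tumours. The treated genotypes overlapped in Cdh11, and both lay below the untreated wild-type tumours and within or below the untreated heterozygous range. Cdh11 thus could not check the genotype labels of the treated groups, and both are called by their labels. The reason for the lower level in treated tumours labelled wild-type was not tested. Averaged over genotypes, the Cdh11 log2 fold change was -0.55 ± 0.26 (SE; edgeR adjusted p = 0.942).

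Few changes were shared by both genotypes. In the average, 2 of 24065 genes passed the threshold (edgeR quasi-likelihood test, Benjamini-Hochberg adjusted p under 0.05), both higher with gemcitabine, which is 0.00831% of the genes tested. No gene passed as lower. At an unadjusted p under 0.05 there were 1071 genes (4.45%), of which 541 (2.25%) had higher and 530 (2.20%) lower levels with gemcitabine, where 1203 would be expected if no gene differed. DESeq2 called 30 genes, 18 higher and 12 lower. The median standard error of the averaged log2 fold change was 0.29. For 13938 genes (57.9%) the 95% interval lay within a 2-fold change in either direction, so that for these genes a larger average change lay outside the interval. For the remaining genes the spread between mice, with a biological coefficient of variation of 46.4%, left wider intervals.

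The effects in the 2 genotypes, which share no library, mostly ran apart. By edgeR 2 genes passed in mice labelled heterozygous (0.00831%), the same 2 as in the average, and 0 in mice labelled wild-type (0.00%); DESeq2 called 170 and 122. In mice labelled heterozygous 1901 genes (7.90%) reached an unadjusted p under 0.05 and in mice labelled wild-type 2070 (8.60%). Only 29 genes (0.121%) did so in both with the same sign, against 275 (1.14%) with opposite signs. With a covariate for Y-linked genes these were 19 and 83, without untreated wild-type mouse 2 they were 46 and 116, and without untreated heterozygous mouse 3 they were 102 and 254. In the treated groups sex and genotype cannot be told apart. The sign was the same for 43.0% of all genes tested, and across genes the heterozygous and wild-type effects had a Pearson r of -0.207 (Spearman rho -0.215, 24065 genes, which are not independent replicates). Without untreated wild-type mouse 2 the r was -0.0479. Treatment took a mean of 8.59% of the variance of a gene's log2 CPM, against 9.09% for 1 of 11 degrees of freedom, the interaction of treatment with genotype took 12.8%, and mice within groups held 68.6%.

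**Figure D1:**
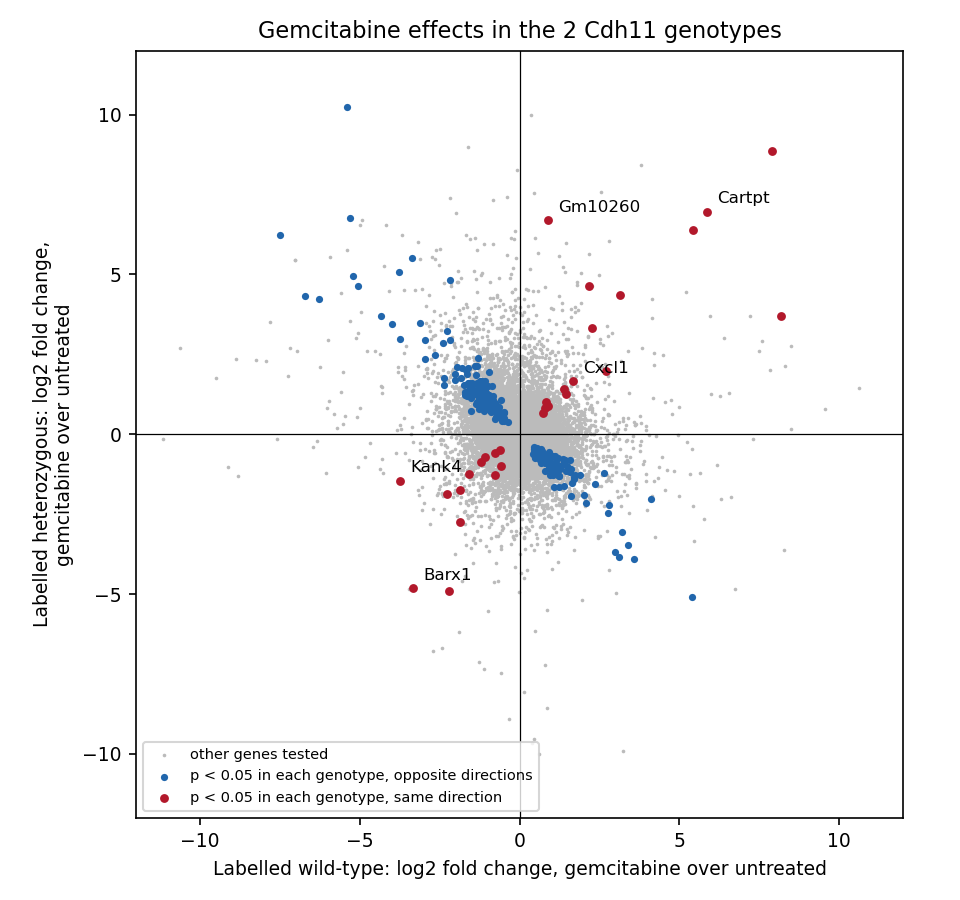
Each point is 1 of 24065 genes, with the gemcitabine log2 fold change in mice labelled wild-type on the x axis and in mice labelled heterozygous on the y axis. The 29 red genes reached an unadjusted edgeR p under 0.05 in each genotype with the same sign, and the 275 blue genes did so with opposite signs, lying in the upper left and lower right.

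The 2 genes that rose are Gm10260 and BC023719, and both calls rest on the mice labelled heterozygous. Gm10260 (ENSMUSG00000069117, GRCm38 chromosome 13, 97760072 to 97760632, minus strand) is a near-identical copy of Rps18, which encodes a protein of the small ribosomal subunit. In the transcripts of GENCODE M21 the alignment of the pair was 99.1% identical over 545 bases, with 4 differences in a reading frame of 459 bases. The stretch that holds 3 of the 4 is shown because reads can be told apart only where the copies differ. Capitals mark the differing bases in positions 312 to 431 of the reading frame, counted from its first base, 5′ to 3′.
Gm10260: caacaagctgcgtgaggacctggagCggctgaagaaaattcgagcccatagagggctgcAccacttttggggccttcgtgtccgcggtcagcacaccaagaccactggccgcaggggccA
Rps18: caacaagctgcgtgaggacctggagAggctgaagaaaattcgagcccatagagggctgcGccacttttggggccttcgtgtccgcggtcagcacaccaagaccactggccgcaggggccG

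Gm10260 had 117, 111 and 121 CPM in treated tumours labelled heterozygous and 215, 466 and 188 CPM in treated tumours labelled wild-type, against 0.900, 0.929 and 1.51 CPM in untreated heterozygous and 143, 206 and 123 CPM in untreated wild-type tumours. The 3 untreated heterozygous tumours stood apart from the other 9. The averaged log2 fold change was 3.79 ± 0.27 (SE; edgeR adjusted p = 0.000503), made of 6.70 ± 0.44 in mice labelled heterozygous and 0.88 ± 0.34 in mice labelled wild-type. It was the 1 called gene with an unadjusted p under 0.05 in each genotype (8.5e-09 and 0.026), and it did not meet that rule with an acinar covariate or without treated mouse 2 labelled wild-type, untreated wild-type mouse 1 or untreated wild-type mouse 3. When its counts were summed with those of the 5 near-identical copies, Rps18 included, the averaged log2 fold change was 0.04 ± 0.24 (edgeR adjusted p = 0.99). BC023719 (ENSMUSG00000092365, chromosome 17, 36111426 to 36117121, plus strand) is annotated as antisense in the class I region of the major histocompatibility complex, and reads of a gene and its antisense partner cannot be told apart where the counting may not use strand. It had 142, 115 and 135 counts in treated tumours labelled heterozygous and 360, 252 and 210 in treated tumours labelled wild-type, against 0, 0 and 0 in untreated heterozygous and 290, 231 and 156 in untreated wild-type tumours. Against a floor of 3 counts per library it was at least 43.4-fold higher with gemcitabine among mice labelled heterozygous. The log2 fold change in mice labelled wild-type was 0.34 ± 0.34 (SE). Summed with its copy A930015D03Rik, the averaged log2 fold change was 0.57 ± 0.26 (edgeR adjusted p = 0.942). Neither gene passed where treatment and genotype were fitted as additive terms (edgeR adjusted p = 0.996 for each).

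Among the genes that did not pass, and leaving out predicted, RIKEN and clone-named genes, the smallest p-values on the lower side belonged to Kank4, Hspb8, Hectd2, N4bp2l1, Rpl7a-ps11, Lvrn, Aldh6a1, Arl4a, Nr4a3 and Barx1, with edgeR adjusted p of 0.816 for the first 3 and 0.942 for the others. Kank4 (ENSMUSG00000035407, chromosome 4, 98754898 to 98817537, minus strand) encodes a cytoskeletal scaffold protein of the KANK family. It had 3.05, 0.536 and 0.622 CPM in treated tumours labelled heterozygous and 0.590, 0.163 and 0.408 CPM in treated tumours labelled wild-type, against 3.51, 3.48 and 4.53 CPM in untreated heterozygous and 5.80, 6.00 and 3.91 CPM in untreated wild-type tumours. All 6 treated tumours lay below all 6 untreated tumours, and treated mouse 1 labelled heterozygous lay nearest to the untreated range. The averaged log2 fold change was -2.60 ± 0.47 (SE; unadjusted p = 0.000183), with -1.45 ± 0.64 in mice labelled heterozygous and -3.75 ± 0.71 in mice labelled wild-type. Without that 1 mouse the value was -3.24 and passed (edgeR adjusted p = 0.0269), and DESeq2 called Kank4 with all 12 libraries (adjusted p = 7.94e-05). Kank4os, a transcript on the opposite strand inside the Kank4 locus, also separated the treatments, at 2 to 4 counts in treated and 6 to 15 counts in untreated libraries. Whether reads were counted by strand is not given, so these few counts may include reads of Kank4.

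Hspb8 (chromosome 5, 116408491 to 116422864) encodes a small heat shock protein of chaperone-assisted autophagy. It had 21.3, 14.5 and 16.4 CPM in treated tumours labelled heterozygous and 21.5, 13.6 and 20.5 CPM in treated tumours labelled wild-type, against 23.5, 36.1 and 25.8 CPM in untreated heterozygous and 36.3, 40.0 and 41.7 CPM in untreated wild-type tumours. The treatments did not overlap, and the untreated wild-type tumours were the 3 highest. The averaged log2 fold change was -0.90 ± 0.17, with -0.71 ± 0.24 in mice labelled heterozygous and -1.09 ± 0.24 in mice labelled wild-type. N4bp2l1 lay between 10.4 and 14.2 CPM in treated tumours, median 13.2, against 17.7 to 24.2 CPM in untreated tumours, median 19.7. Its log2 fold changes were -0.58 ± 0.20 in mice labelled heterozygous and -0.77 ± 0.20 in mice labelled wild-type. Hectd2, a HECT-type ubiquitin ligase gene, had 5.57 to 9.79 CPM in treated and 9.74 to 19.0 CPM in untreated tumours. Its log2 fold change was -1.36 ± 0.24 in mice labelled heterozygous and -0.42 ± 0.24 in mice labelled wild-type, a difference of unadjusted p = 0.019 that did not pass (edgeR adjusted p = 0.31).

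Aldh6a1, a dehydrogenase gene of valine breakdown, had 17.9 to 33.0 CPM in treated and 31.2 to 60.0 CPM in untreated tumours (log2 fold change -0.78 ± 0.18). The small GTPase gene Arl4a had -1.01 ± 0.24, the aminopeptidase gene Lvrn -2.06 ± 0.47 and the nuclear receptor gene Nr4a3 -1.36 ± 0.36. Barx1, a homeobox gene of the stomach mesenchyme, had 7, 5 and 0 counts in treated tumours labelled heterozygous and 33, 2 and 14 in treated tumours labelled wild-type, against 200, 142 and 0 in untreated heterozygous and 141, 257 and 110 in untreated wild-type tumours. One untreated heterozygous tumour thus had no Barx1 count. Rpl7a-ps11, a pseudogene with many near-identical copies, had no count in the 3 treated tumours labelled wild-type, and its value is uncertain.

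On the higher side, chosen the same way, the smallest p-values belonged to Igkv14-126, Olfm4, Gpr61, Brinp3, Olfr873, Myrip, Ptpn22, Srd5a1 and Kpna2, each with edgeR adjusted p = 0.942. Srd5a1, the steroid 5-alpha reductase gene, had 29.01, 20.0 and 43.9 CPM in treated tumours labelled heterozygous and 13.1, 37.5 and 23.5 CPM in treated tumours labelled wild-type, against 9.91, 19.9 and 8.62 CPM in untreated heterozygous and 13.4, 6.94 and 6.67 CPM in untreated wild-type tumours. Treated mouse 1 labelled wild-type lay inside the untreated range, and the other 5 treated tumours lay above it. The log2 fold changes were 1.27 ± 0.48 in mice labelled heterozygous and 1.45 ± 0.48 in mice labelled wild-type, with an average of 1.36 ± 0.34. Ptpn22, a phosphatase gene of lymphocytes, had 10.6 to 35.7 CPM in treated tumours, median 20.7, against 8.996 to 11.8 CPM in untreated tumours, median 9.48 (log2 fold change 1.08 ± 0.26).

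Gpr61, an orphan receptor gene, had 18 to 41 counts in treated and 9 to 13 counts in untreated libraries, with no overlap in CPM. Its log2 fold change was 1.42 ± 0.44 in mice labelled heterozygous and 1.38 ± 0.44 in mice labelled wild-type. Olfr873, an odorant receptor gene, had 7 to 14 counts against 0 to 3, so both rest on few reads. The intestinal stem cell and neutrophil gene Olfm4 had 2.46 ± 0.53, and the vesicle transport gene Myrip 1.86 ± 0.45. Brinp3 had 3.48 ± 0.80. Kpna2, which encodes an importin, had 1.81 ± 0.46 and has 4 near-identical copies. Igkv14-126, an antibody light chain segment, had 13, 88 and 105 counts in treated tumours labelled heterozygous and 11, 5 and 3 in treated tumours labelled wild-type, against 0, 0 and 3 in untreated heterozygous and 3, 2 and 2 in untreated wild-type tumours.

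Of the 29 genes with an unadjusted p under 0.05 in each genotype and the same sign, 16 were higher and 13 lower with gemcitabine. The rule picked them by their effects in each genotype, so those effects are no further support. A count expected without shared effects was not computed, and Gm10260 alone among them passed in the average. The following were named after their values were seen. Fam129a, a stress-responsive gene, had 51.1, 53.3 and 62.8 CPM in treated tumours labelled heterozygous and 61.1, 66.3 and 61.7 CPM in treated tumours labelled wild-type, against 24.3, 44.1 and 37.2 CPM in untreated heterozygous and 25.2, 52.0 and 36.6 CPM in untreated wild-type tumours. Untreated wild-type mouse 2 alone reached the treated range. Its log2 fold change was 0.66 ± 0.27 in mice labelled heterozygous and 0.73 ± 0.27 in mice labelled wild-type. Nrarp, a feedback inhibitor of Notch signalling, had 0.92 ± 0.25 in the average, the respiratory complex I gene Ndufs5 0.81 ± 0.21 and the transcription factor gene Klf12 -1.41 ± 0.40. Slc25a12, the mitochondrial aspartate-glutamate carrier gene, had 11.1 to 17.7 CPM in treated and 18.8 to 25.5 CPM in untreated tumours, with no overlap (log2 fold change -0.56 ± 0.15). The developmental genes Eya1 and En1 and the neuropeptide gene Cartpt had large estimates (3.75, 5.92 and 6.41) from a few libraries. Of these, Cartpt had 43 or fewer counts in every library and En1 had 656, 943 and 920 counts in 3 treated libraries and at most 26 in the other 9; without treated mouse 3 labelled heterozygous the En1 estimate was 2.16.

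Among all genes tested, 24 (0.0997%) had no overlap between the 6 treated and the 6 untreated libraries, 13 higher (0.0540%) and 11 lower (0.0457%). Of these, 7 were among the 29. The number expected if no gene differed was not computed, so non-overlap alone does not set these genes apart. Picked from these 24 by function, the DNA damage genes Topbp1 and Fancc were higher and Ercc4 was lower. The share of such genes among the 24 was not compared with that over all genes tested. Topbp1, which activates the checkpoint kinase ATR, had 72.6 to 109 CPM in treated tumours, median 91.8, against 43.5 to 71.8 CPM in untreated tumours, median 67.5. Its log2 fold change was 0.65 ± 0.21 in mice labelled heterozygous and 0.41 ± 0.21 in mice labelled wild-type (average 0.53 ± 0.15, edgeR adjusted p = 0.942). Fancc, of the Fanconi anaemia pathway, had 0.45 and the repair nuclease gene Ercc4 -0.35; both were named after their values were seen.

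**Figure D2:**
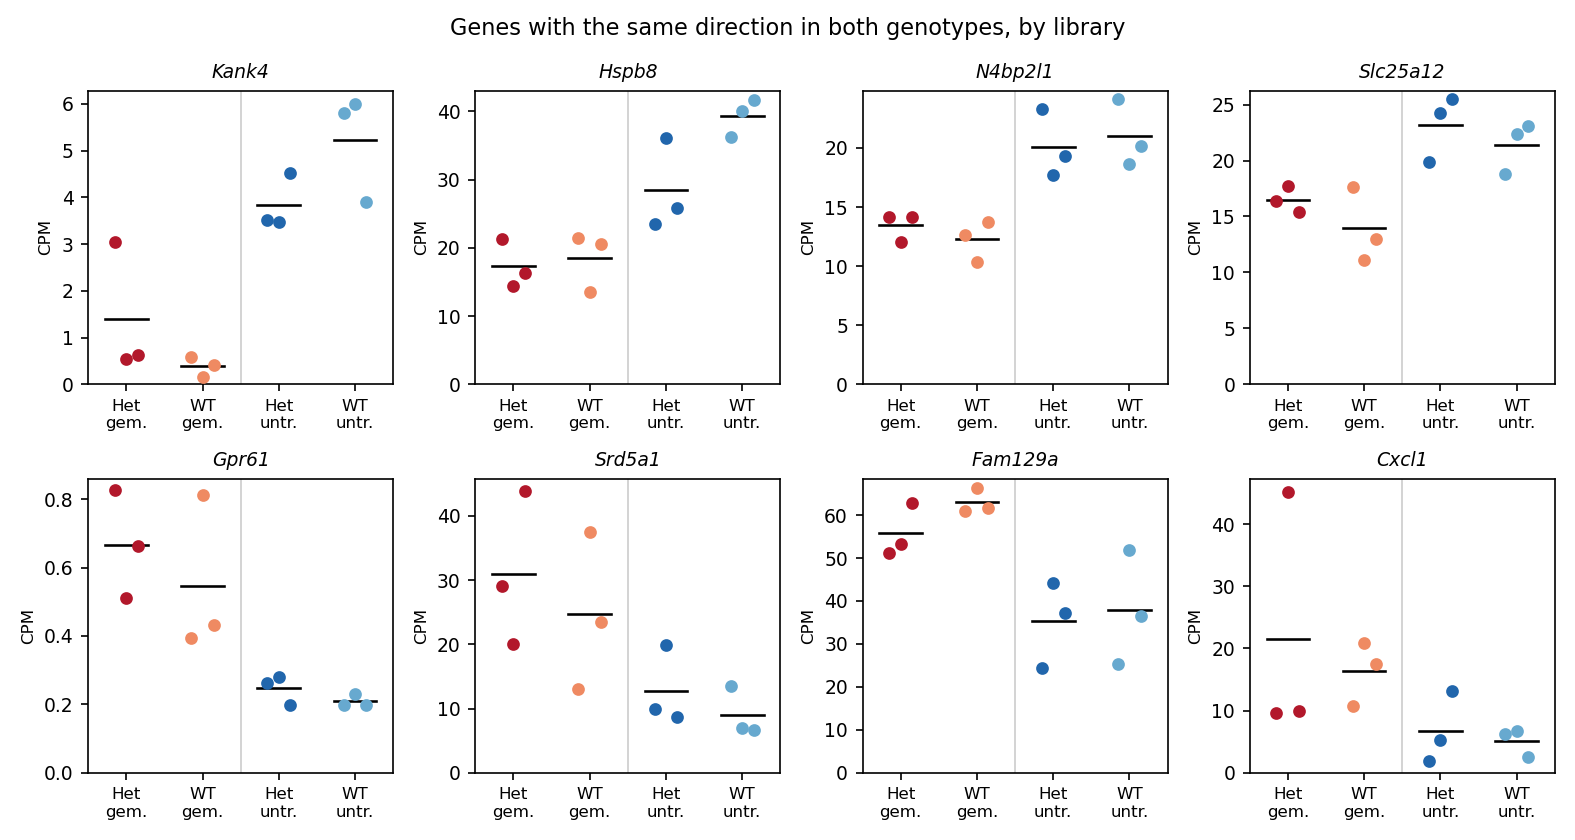
CPM of 8 genes in each library, with gemcitabine-treated groups (Het is labelled heterozygous, WT labelled wild-type) left of the untreated groups; points are mice and bars group means of 3. Kank4, Hspb8, N4bp2l1, Slc25a12 and Gpr61 show no overlap between 6 treated and 6 untreated tumours, and Srd5a1, Fam129a and Cxcl1 overlap.

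Genes that handle gemcitabine were next compared. Of 23 tested genes of gemcitabine transport and metabolism none passed, 13 had a higher and 10 a lower average level with gemcitabine, and the median log2 fold change was 0.08, with 0.12 in mice labelled heterozygous and 0.15 in mice labelled wild-type. Over all genes tested the median was -0.01 and 49.1% were higher. The 95% interval lay within 2-fold for 17 of the 23. Slc29a1, the main import transporter, had 25.1 to 78.7 CPM in treated and 22.7 to 98.7 CPM in untreated tumours, with an averaged log2 fold change of -0.19 (95% interval -1.03 to 0.66). Dck, the activating kinase, had 7.51 to 17.0 CPM in treated and 6.43 to 18.3 CPM in untreated tumours (0.08, interval -0.53 to 0.70). These transport and activation genes overlapped almost wholly between treatments.

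Cda, the deaminase that inactivates the drug, had 9.37, 10.1 and 7.08 CPM in treated tumours labelled heterozygous and 5.03, 7.39 and 4.79 CPM in treated tumours labelled wild-type, against 3.27, 8.70 and 2.42 CPM in untreated heterozygous and 11.7, 6.99 and 21.2 CPM in untreated wild-type tumours. Its average of -0.16 ± 0.35 joined 0.88 ± 0.50 in mice labelled heterozygous with -1.21 ± 0.51 in mice labelled wild-type, a difference with an unadjusted p of 0.013 that did not pass (edgeR adjusted p = 0.29). The ribonucleotide reductase subunit genes Rrm1 and Rrm2 had 0.18 (interval -0.26 to 0.62) and -0.77 (interval -2.02 to 0.49). Rrm2 had 8.20 to 47.6 CPM in treated and 10.4 to 77.2 CPM in untreated tumours. The members with the smallest p were the nucleoside carrier gene Slc28a2 (1.32 ± 0.46), Tk1, the thymidine kinase gene (0.41 ± 0.18), and the efflux transporter gene Abcc10 (-0.51 ± 0.22). Slc28a2 had 46, 131 and 164 counts in treated tumours labelled heterozygous and 1065, 151 and 261 in treated tumours labelled wild-type, against 81, 72 and 63 in untreated heterozygous and 108, 151 and 130 in untreated wild-type tumours. Treated mouse 1 labelled wild-type stood far above the rest, and without it the value was 0.73. Abcc10 had -0.30 without untreated heterozygous mouse 2, and Rrm2 had -0.22 without untreated wild-type mouse 3.

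Of 27 tested p53 target genes none passed, 12 were higher and 15 lower, and the median was -0.09. Cdkn1a, the cell cycle inhibitor p21, had 26.5, 21.6 and 20.4 CPM in treated tumours labelled heterozygous and 38.4, 27.8 and 48.1 CPM in treated tumours labelled wild-type, against 28.7, 80.2 and 20.4 CPM in untreated heterozygous and 37.3, 40.2 and 71.7 CPM in untreated wild-type tumours. The groups overlapped, and the average was -0.65 on the log2 scale (95% interval -1.36 to 0.06), or -0.24 without untreated heterozygous mouse 2. Mdm2, the p53 ubiquitin ligase, had -0.11 (interval -0.38 to 0.16), the death effector genes Bax and Bbc3 had 0.04 (-0.35 to 0.43) and -0.62 (-1.15 to -0.08), and Trp53 itself 0.48 (0.05 to 0.90). None of 18 apoptosis regulators passed, and their median was 0.04.

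**Figure D3:**
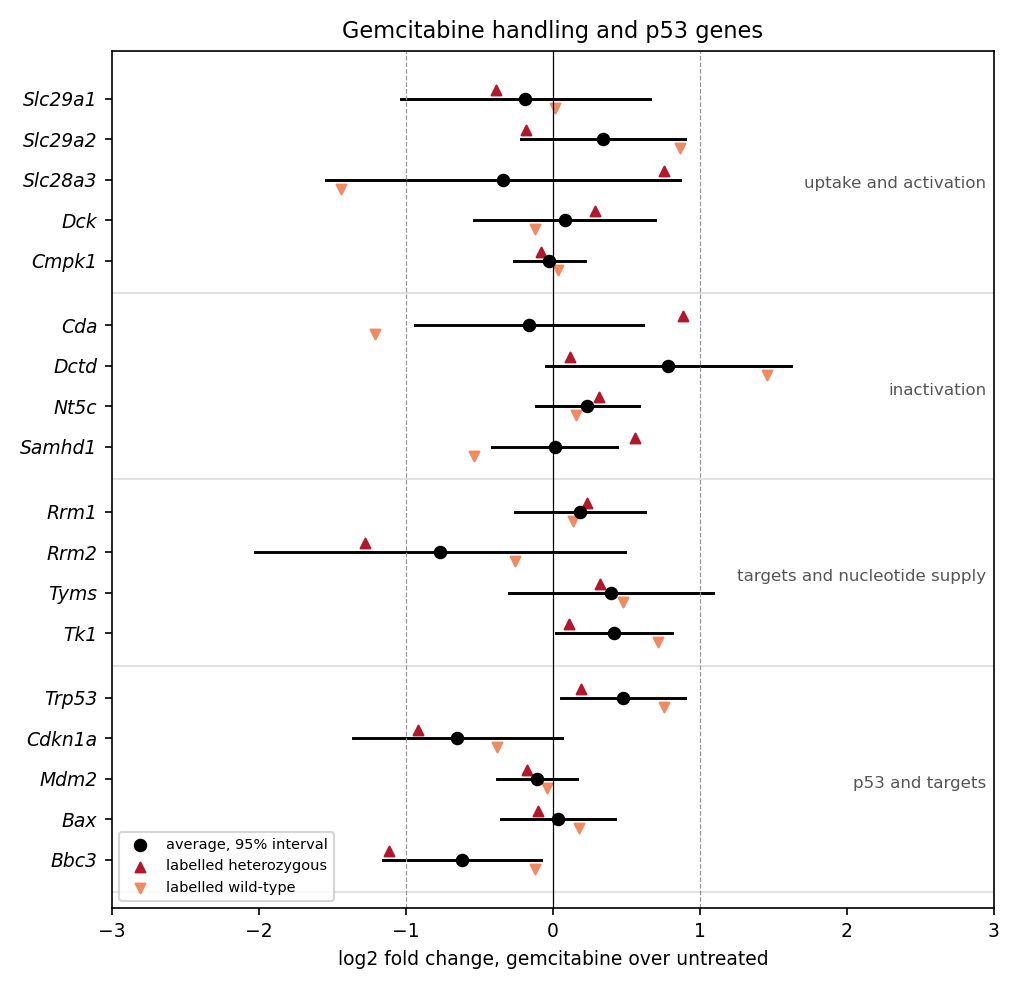
Averaged log2 fold change of gemcitabine over untreated for 18 genes of drug handling and p53 (black points, with 95% intervals), beside the effect in mice labelled heterozygous (red) and in mice labelled wild-type (orange). The dashed lines mark a 2-fold change, and for Cda the genotypes lie on opposite sides of 0.

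Cell cycle genes had higher average levels with gemcitabine, without a gene that passed. Of 24 tested mitosis genes 24 were higher, with a median log2 fold change of 0.55, 0.37 in mice labelled heterozygous and 0.80 in mice labelled wild-type. Of 26 DNA replication genes 25 were higher (median 0.40, with 0.37 and 0.54), and of 29 DNA damage checkpoint and repair genes 22 were higher (median 0.29, with 0.18 and 0.29). At an unadjusted p under 0.05 were 1 mitosis gene, 2 replication genes and 3 damage genes, 2 of these higher, out of 24, 26 and 29 tested, where 4.45% of all genes tested reached it, so these counts are not results about the lists. The mitosis genes summed to 490, 1537 and 738 CPM in treated tumours labelled heterozygous and 604, 1652 and 330 CPM in treated tumours labelled wild-type, against 374, 291 and 1483 CPM in untreated heterozygous and 374, 539 and 519 CPM in untreated wild-type tumours. The sums of 1537, 1652 and 1483 CPM, 1 mouse in each of 3 groups, stood above the rest, and the treatments overlapped. Without treated mouse 2 labelled wild-type the medians of the 3 lists were 0.11, 0.22 and 0.09 in the order given, and without untreated heterozygous mouse 3 they were 1.09, 0.65 and 0.40. Kif23, a kinesin gene of cell division, had 0.93 ± 0.39, the topoisomerase gene Top2a 0.93 ± 0.55 and the proliferation marker Mki67 0.51 ± 0.54; without treated mouse 2 labelled wild-type Top2a had 0.43. Orc1, a subunit of the replication origin complex, had 4.34 to 8.83 CPM in treated and 2.62 to 4.69 CPM in untreated tumours, with 0.69 ± 0.35 in mice labelled heterozygous and 0.80 ± 0.35 in mice labelled wild-type. Cdc6, which loads the replicative helicase, had 1.14 ± 0.50. Ccnd1, the cyclin D1 gene, had 256 to 513 CPM in treated and 173 to 362 CPM in untreated tumours (0.62 ± 0.23). Among damage genes Gadd45g, a stress sensor, ran the other way, at 5.78 to 13.8 CPM in treated and 7.13 to 52.0 CPM in untreated tumours (-1.44 ± 0.47).

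Clock, immediate early and hypoxia genes had lower average levels with gemcitabine, again with 0 genes that passed. Of 17 circadian clock genes 15 were lower (median -0.30, with -0.61 in mice labelled heterozygous and -0.21 in mice labelled wild-type). At an unadjusted p under 0.05, 4 of the 17 were lower, against 2.20% of all genes tested. The core activator gene Arntl had 24.3 to 30.3 CPM in treated and 25.6 to 43.3 CPM in untreated tumours (-0.30 ± 0.12), and the repressor genes Bhlhe40 and Per1 had -0.98 ± 0.40 and -0.66 ± 0.29. Without untreated heterozygous mouse 2 Bhlhe40 had -0.51. The labels do not state the hour of collection, and its part in these values was not tested. Of 19 immediate early genes 15 were lower, median -0.42. Fosb had 3.53, 2.94 and 6.18 CPM in treated tumours labelled heterozygous and 5.77, 4.97 and 8.25 CPM in treated tumours labelled wild-type, against 4.41, 65.0 and 4.15 CPM in untreated heterozygous and 18.1, 4.45 and 30.4 CPM in untreated wild-type tumours. Of the untreated tumours 3 were high and 3 were within the treated range, and without untreated heterozygous mouse 2 the list's median was -0.05.

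The 18 symbols of the hypoxia and glycolysis list gave 19 tested gene IDs, since a symbol can match more than 1 ID. Of these 19, 18 were lower (median -0.63, with -1.05 in mice labelled heterozygous and -0.26 in mice labelled wild-type). Their sums were 2821, 2151 and 1941 CPM in treated tumours labelled heterozygous and 2231, 5041 and 3823 CPM in treated tumours labelled wild-type, against 2154, 7751 and 2846 CPM in untreated heterozygous and 3347, 1556 and 7499 CPM in untreated wild-type tumours. The same untreated heterozygous mouse 2 and untreated wild-type mouse 3 held the high sums, and without the first the median was -0.09. Ndrg1, a hypoxia-induced gene, had -1.29 ± 0.63, and the vasodilator peptide gene Adm -1.76 ± 0.94. Ndrg1 had -0.57 without untreated wild-type mouse 3, and Adm had -0.20 without untreated heterozygous mouse 2. The carbonic anhydrase gene Car9, the 1 member with a higher average, had estimates of opposite sign in the 2 genotypes. It had 19.8, 11.6 and 9.83 CPM in treated tumours labelled heterozygous and 44.9, 51.6 and 39.2 CPM in treated tumours labelled wild-type, against 26.2, 50.3 and 27.98 CPM in untreated heterozygous and 14.0, 6.85 and 21.0 CPM in untreated wild-type tumours. Its average was 0.18 ± 0.29, with -1.34 ± 0.41 in mice labelled heterozygous and 1.70 ± 0.42 in mice labelled wild-type (difference unadjusted p = 0.00031, edgeR adjusted p = 0.25). Of 17 NRF2 target genes 12 were lower, and the cystine transporter gene Slc7a11 had -1.97 ± 0.47 in mice labelled heterozygous and -0.24 ± 0.46 in mice labelled wild-type.

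Apart from the sex-chromosome genes, red cell genes had the lowest averaged list median. Of 8 tested erythroid genes 7 were lower, and none passed. At an unadjusted p under 0.05, 6 of the 8 were lower, against 2.20% of all genes tested. Globin genes among them are pairs of similar genes, so the members are not all separate measures. The median log2 fold change was -1.86, with -1.48 in mice labelled heterozygous and -2.24 in mice labelled wild-type. In bulk tumour RNA, fewer cells of a type and less RNA per cell cannot be told apart. The erythroid genes summed to 115, 46.5 and 170 CPM in treated tumours labelled heterozygous and 36.8, 111 and 126 CPM in treated tumours labelled wild-type, against 211, 692 and 26.9 CPM in untreated heterozygous and 319, 531 and 419 CPM in untreated wild-type tumours. Of the 6 untreated tumours 5 lay above all 6 treated tumours, and untreated heterozygous mouse 3 lay below them all. The list's median was -1.13 without untreated heterozygous mouse 2 and -2.14 without untreated heterozygous mouse 3. The beta globin genes Hbb-bs and Hbb-bt differ at 1 base in a reading frame of 444 bases. A stretch near its end, positions 298 to 417, is shown 5′ to 3′ with the differing base in capitals.
Hbb-bs: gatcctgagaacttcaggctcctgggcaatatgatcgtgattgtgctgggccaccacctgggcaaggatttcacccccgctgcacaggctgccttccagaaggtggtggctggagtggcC
Hbb-bt: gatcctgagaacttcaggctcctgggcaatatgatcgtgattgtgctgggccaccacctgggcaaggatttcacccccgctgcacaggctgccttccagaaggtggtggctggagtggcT

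Both lie on the minus strand of GRCm38 chromosome 7 (103826534 to 103828096 and 103812524 to 103813996). Their whole alignment was 93.9% identical over 607 bases, below the 95% identity set for copies, so reads outside the reading frame can tell them apart better. Reads within the reading frame can be split either way, and the counts of both genes were summed. Together they had 2657, 789 and 3956 counts in treated tumours labelled heterozygous and 562, 2025 and 2190 in treated tumours labelled wild-type, against 4525, 16119 and 455 in untreated heterozygous and 6038, 10448 and 8974 in untreated wild-type tumours. The summed log2 fold change was -1.95 ± 0.69, with -1.59 ± 0.97 in mice labelled heterozygous and -2.30 ± 0.99 in mice labelled wild-type (edgeR adjusted p = 0.943). The alpha globin genes Hba-a1 and Hba-a2 summed to -1.88 ± 0.66 (edgeR adjusted p = 0.943). Alas2, the haem synthesis enzyme of red cell precursors, had 5.87 to 8.53 CPM in treated tumours, median 6.86, against 7.13 to 15.6 CPM in untreated tumours, median 13.0, and its log2 fold change was -0.76 ± 0.20 (edgeR adjusted p = 0.942). Globin RNA can come from blood left in the tissue, and the part of residual blood in these values was not tested.

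**Figure D4:**
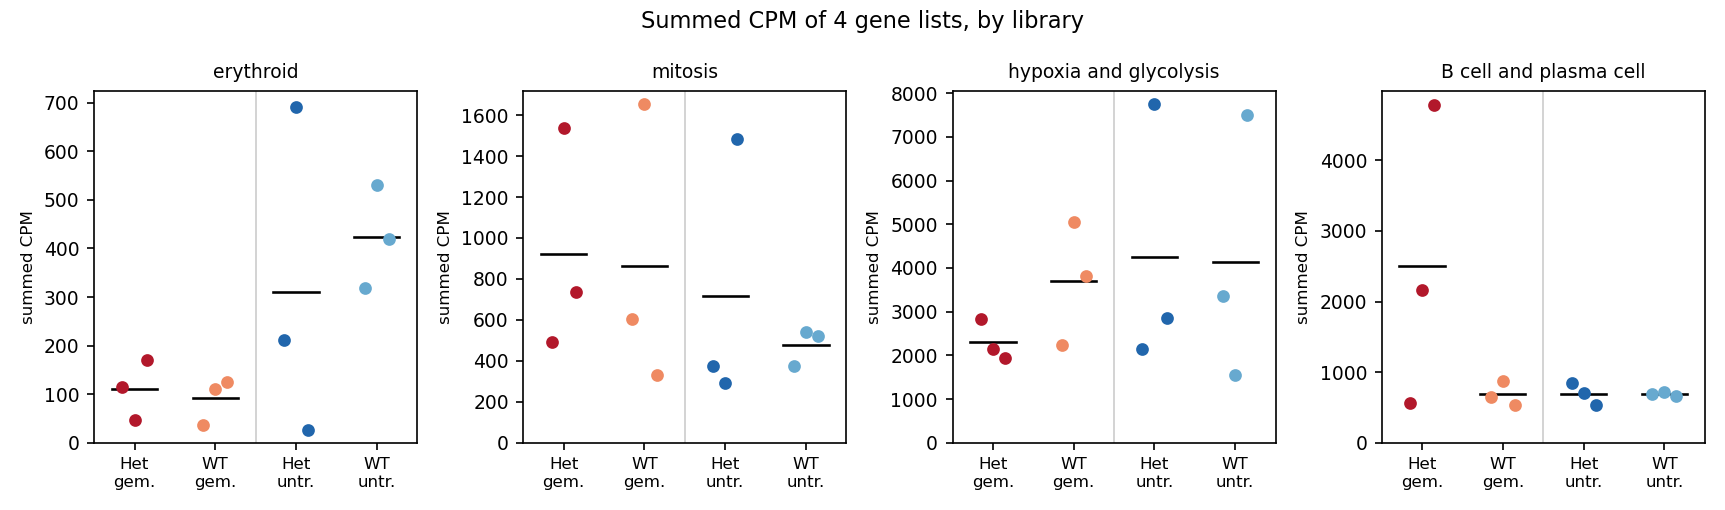
Summed CPM of erythroid, mitosis, hypoxia and glycolysis, and B cell and plasma cell genes in each library, with treated groups left of untreated groups; points are mice and bars group means of 3. For erythroid genes 5 of 6 untreated tumours lie above all treated tumours, and for B cell and plasma cell genes 2 treated tumours labelled heterozygous hold the high sums.

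Among secreted signals, 18 of 25 chemokine and cytokine genes were higher on average, and none passed the threshold. At an unadjusted p under 0.05, 6 of the 25 were higher, against 2.25% of all genes tested. The median was 0.37, with 0.90 in mice labelled heterozygous and -0.17 in mice labelled wild-type, and 0.65 without untreated wild-type mouse 2. Cxcl1, a neutrophil attractant, had 9.55, 45.1 and 9.91 CPM in treated tumours labelled heterozygous and 10.8, 20.9 and 17.4 CPM in treated tumours labelled wild-type, against 1.93, 5.25 and 13.1 CPM in untreated heterozygous and 6.22, 6.66 and 2.58 CPM in untreated wild-type tumours. Only untreated heterozygous mouse 3 reached the treated range. The log2 fold change was 1.67 ± 0.75 in mice labelled heterozygous and 1.67 ± 0.75 in mice labelled wild-type, with an average of 1.67 ± 0.53. Csf3, the granulocyte growth factor gene, had 0.707 to 10.8 CPM in treated and 0.0794 to 1.91 CPM in untreated tumours (2.99 ± 0.92). The related chemokine genes Cxcl5 and Cxcl3 had 2.01 ± 0.63 and 2.79 ± 0.93. Cxcl3 had 191, 2150 and 31 counts in treated tumours labelled heterozygous and 39, 316 and 47 in treated tumours labelled wild-type, against 59, 38 and 30 in untreated heterozygous and 44, 31 and 113 in untreated wild-type tumours. Treated mouse 2 labelled heterozygous held most of these counts, and without it Cxcl3 had 1.28 and Cxcl1 1.10.

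The medians of most immune cell lists had opposite signs in the 2 genotypes. Their medians were 1.47 in mice labelled heterozygous and -0.60 in mice labelled wild-type for 14 neutrophil genes, 0.79 and -0.81 for 20 macrophage genes, 1.47 and -0.91 for 20 T cell and cytotoxic genes, and 1.13 and -1.63 for 11 class II presentation genes. The averages over genotypes were 0.53, -0.03, -0.09 and -0.25 in that order. No member passed in the average. The T cell and cytotoxic genes summed to 8.09, 50.9 and 46.0 CPM in treated tumours labelled heterozygous and 9.60, 7.30 and 8.25 CPM in treated tumours labelled wild-type, against 10.8, 9.61 and 30.8 CPM in untreated heterozygous and 8.93, 22.4 and 10.7 CPM in untreated wild-type tumours. Treated mouse 1 labelled heterozygous was thus within the level of the treated tumours labelled wild-type. The class II genes summed to 687, 2423 and 1680 CPM in treated tumours labelled heterozygous and 653, 238 and 478 CPM in treated tumours labelled wild-type, against 801, 317 and 1306 CPM in untreated heterozygous and 372, 2868 and 600 CPM in untreated wild-type tumours. Untreated wild-type mouse 2 held the high sum of its group. With 1 library left out the averaged medians lay between 0.10 and 0.90 for neutrophil, -0.27 and 0.32 for macrophage, -0.26 and 0.82 for T cell and -0.64 and 0.56 for class II genes. B cell and plasma cell genes had the highest averaged median of the lists, 1.34 over 19 genes, with 2.85 in mice labelled heterozygous and -0.44 in mice labelled wild-type. Their sums were 567, 2165 and 4775 CPM in treated tumours labelled heterozygous and 649, 869 and 540 CPM in treated tumours labelled wild-type, against 846, 708 and 528 CPM in untreated heterozygous and 686, 715 and 661 CPM in untreated wild-type tumours. Treated mice 2 and 3 labelled heterozygous held the high sums, and the other 10 tumours lay between 528 and 869 CPM. The list's averaged median was 0.73 without treated mouse 2 labelled wild-type and 1.87 without untreated heterozygous mouse 3. Igha, an antibody heavy chain gene, had 3.20 ± 0.94 in mice labelled heterozygous and -0.34 ± 0.86 in mice labelled wild-type. Interferon response genes ran the other way, with medians of -0.82 in mice labelled heterozygous and 1.18 in mice labelled wild-type (29 genes, average 0.06). Their sums were 185, 272 and 236 CPM in treated tumours labelled heterozygous and 178, 183 and 519 CPM in treated tumours labelled wild-type, against 217, 154 and 686 CPM in untreated heterozygous and 178, 216 and 118 CPM in untreated wild-type tumours. The 2 high sums each came from 1 mouse of a group. The averaged median was -0.33 without treated mouse 3 labelled wild-type and 0.72 without untreated heterozygous mouse 3.

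Among stromal and epithelial lists, the signs of the medians were opposite for collagen, endothelial and duct genes and the same for squamous and basal epithelium genes. The 24 fibrillar collagen and matrix genes had medians of 0.40 in mice labelled heterozygous and -0.63 in mice labelled wild-type (average -0.13), and the 20 endothelial and pericyte genes 0.43 and -0.70 (average -0.05). Lum, a collagen-binding proteoglycan gene, had 117, 79.8 and 65.4 CPM in treated tumours labelled heterozygous and 117, 53.9 and 60.6 CPM in treated tumours labelled wild-type, against 41.0, 61.8 and 49.5 CPM in untreated heterozygous and 209, 175 and 178 CPM in untreated wild-type tumours. Its effects were 0.78 ± 0.31 and -1.28 ± 0.32 (difference unadjusted p = 0.00067, edgeR adjusted p = 0.25), and its average was -0.25 ± 0.22. Fap, fibroblast activation protein, had 0.15 ± 0.40 in mice labelled heterozygous and -1.76 ± 0.42 in mice labelled wild-type. The 23 duct epithelium genes had -0.50 and 0.60 (average 0.12), and Krt7, a duct keratin gene, had 0.14 ± 0.42 and 1.20 ± 0.42 in the same order. The 10 squamous and basal epithelium genes had 0.24 and 0.69 (average 0.84, and -0.13 without treated mouse 2 labelled heterozygous). Markers of other pancreatic tissue had no member that passed in the average. Over 16 islet genes the medians were 2.76 in mice labelled heterozygous and -2.88 in mice labelled wild-type, and over 20 acinar genes 0.23 and -1.44. The acinar sum lay between 9.37 and 347 CPM in treated and between 29.2 and 849 CPM in untreated tumours. The islet sum lay between 23.1 and 118 CPM and between 21.9 and 340 CPM, so that the treatments overlapped in both. Low sums can rest on 1 member. Pdx1 held 30.05 of the 31.91 CPM islet sum in treated mouse 2 labelled wild-type. Cela1 held 32.27 of the 38.25 CPM acinar sum in untreated heterozygous mouse 3. Without treated mouse 1 labelled wild-type the averaged medians were -1.20 for acinar and -0.97 for islet genes, against -0.13 and 0.21 with all libraries. With an acinar covariate the same 2 genes passed in the average, and 19 genes in place of 29 met the rule for both genotypes. The part of admixed tissue in single genes was not tested.

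Over the 41 lists without the sex-chromosome genes, 24 had medians of opposite sign in the 2 genotypes, and no member of any list passed in the average. The difference between the genotypes' effects, which is the heterozygous minus the wild-type effect, was tested in the same model. It passed for 2 of 24065 genes (0.00831%), again Gm10260 and BC023719, and 3046 genes (12.7%) reached an unadjusted p under 0.05. That is a larger share than the 4.45% of the average. With a covariate for Y-linked genes, 1111 genes reached it and 0 passed.

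**Figure D5:**
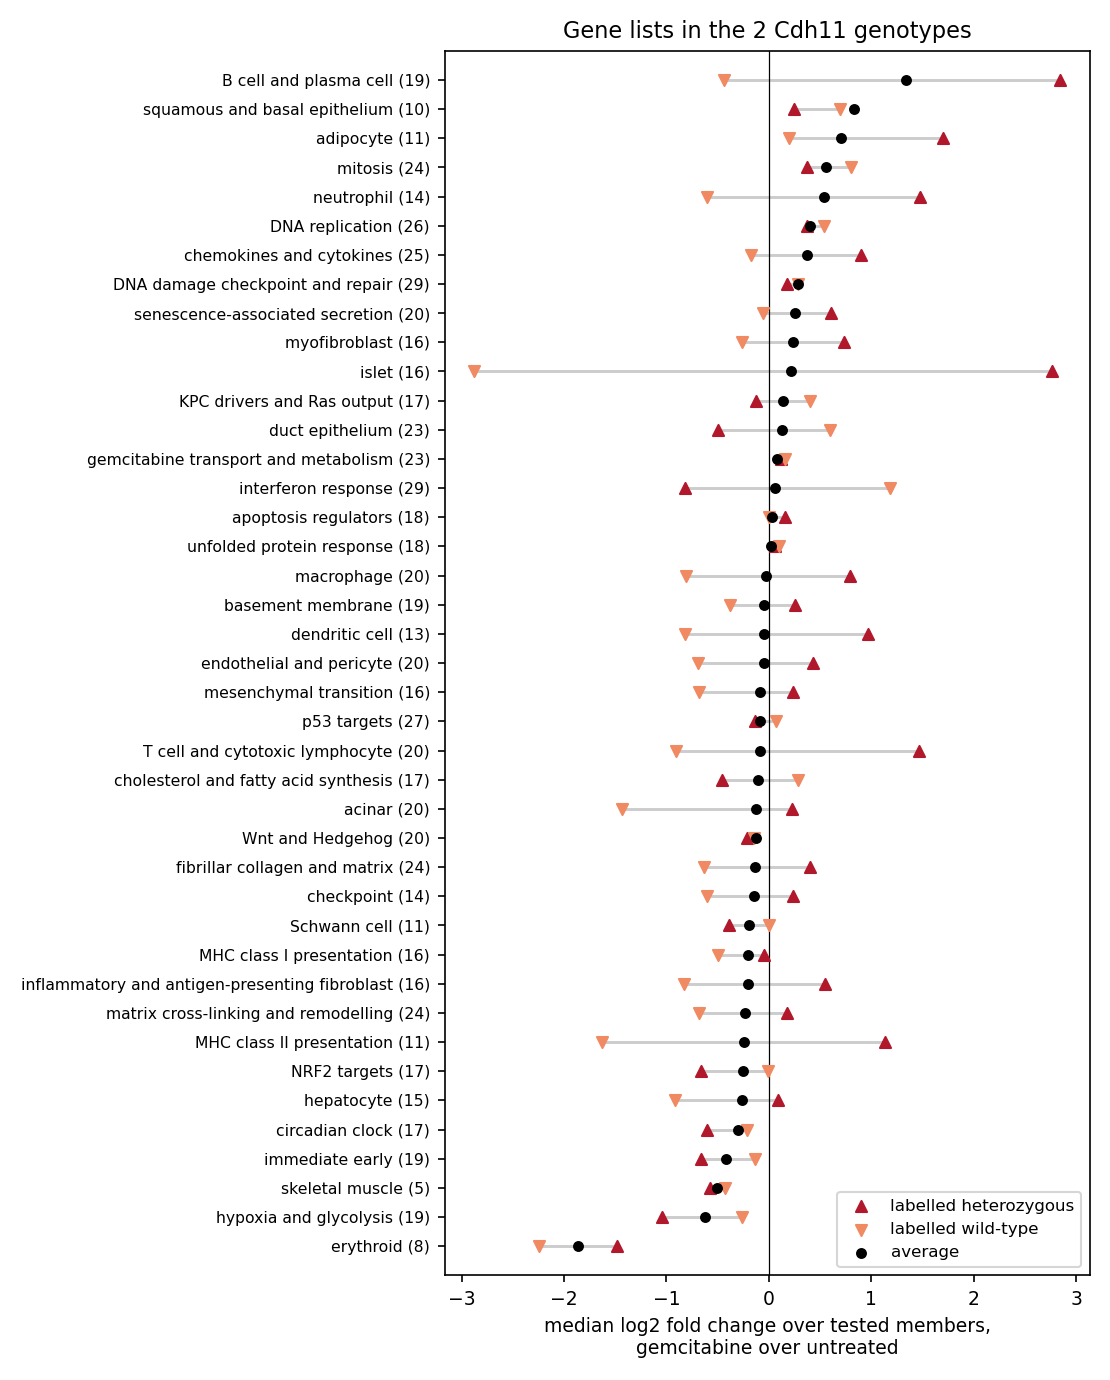
Median log2 fold change of gemcitabine over untreated for 41 gene lists, with the number of tested members in brackets, in mice labelled heterozygous (red), in mice labelled wild-type (orange) and averaged (black). Erythroid, hypoxia and glycolysis, mitosis and DNA replication lists keep 1 sign in both genotypes, and islet, macrophage, neutrophil and collagen lists have opposite signs.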

How the data were processed

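RNA of 12 tumours, 1 library per mouse, was sequenced as stranded total RNA after removal of ribosomal RNA, per the labels' protocols. The authors deposited expected counts per Ensembl gene, which RSEM estimates by dividing reads that map to several places, on GRCm38 per the submitters' processing notes. Not given in the sources used here are the version of RSEM, its aligner, the annotation release and whether reads were counted by strand. The values were whole numbers as deposited. The table of the whole series was not used, since its 12 columns held the same values.

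Groups came from the sample titles. Symbols were matched by gene ID to GENCODE M21 for 52489 IDs; the 147 others held 0.0452% of the counts. In R 4.3.3, edgeR 4.0.16 (filterByExpr, TMM factors 0.897 to 1.09, robust quasi-likelihood fit, 1 mean per group) tested 24065 genes in 4 comparisons. These genes held at least 99.865% of each library's counts. Benjamini-Hochberg adjustment at 0.05 was made within each comparison, over all genes tested. Values in CPM use the TMM-scaled totals. A ± is the standard error of a log2 fold change, and intervals are 95%. A fold against a group without counts uses a floor of 3 counts per library, which covers counting error only. Copies were sought with blastn 2.17.0 at 95% identity over 50% of a transcript, and copies were summed as an alternative chosen after seeing the data.

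Named genes are Cdh11, the 10 smallest p-values in each direction (without predicted, RIKEN and clone-named genes), up to 3 members of each list by p, and 6 drug genes; of these, 1 gene is left out of the text. The lists hold 779 symbols, 744 of them tested. The comparison, the members and the lists were chosen with earlier results of these data known. Same-numbered mice did not deviate together (r between -0.247 and 0.173, 4 of 18 pairs over 0.1). Alternatives were DESeq2 1.42.0 (test and size factors), limma 3.58.1 (voom), upper quartile factors, filters on low counts, covariates for acinar and Y-linked genes, an additive model, a replicate block and each library left out.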

Additional observations from a re-analysis of the deposited data

Results flagged for a closer look

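The gemcitabine effect differed between the genotypes, by the test of the difference itself, for 2 genes. For Gm10260 the effect in mice labelled heterozygous exceeded that in mice labelled wild-type by 5.82 on the log2 scale (edgeR adjusted p = 0.0048), and for BC023719 by 9.65 (edgeR adjusted p = 0.0048). The untreated heterozygous tumours had 41, 43 and 76 counts of Gm10260 and no count of BC023719, so the second value is set by the model's treatment of zeros and is no bound. With a covariate for Y-linked genes neither difference passed. When counts were summed over near-identical copies, the Gm10260 effect was -0.39 in mice labelled heterozygous and 0.47 in mice labelled wild-type (difference edgeR adjusted p = 0.507), and the BC023719 effect was 0.86 and 0.28 (difference edgeR adjusted p = 0.697), so both calls ended.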

How the results depend on the processing

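The count of 2 genes in the average held with DESeq2 size factors, upper quartile factors, no filter, the strict filter, limma-voom and both covariates. DESeq2 as the test gave 30 genes in the average, 122 in mice labelled wild-type, 170 in mice labelled heterozygous and 656 for the difference, 14 changes shared by both genotypes in place of 1, and 49 same-sign and 434 opposite-sign genes. The additive model gave 0. The acinar covariate gave 0 shared changes and 19 same-sign genes; the Y-linked covariate gave 0 for the difference, 19 same-sign and 83 opposite-sign genes, and limma-voom 1 for the difference. Leaving out 1 library at a time gave 2 to 7 genes in the average, 0 to 1 in mice labelled wild-type, 2 to 9 in mice labelled heterozygous, 2 to 7 for the difference, 0 to 2 shared changes, 17 to 102 same-sign and 116 to 396 opposite-sign genes. The average reached 7 without untreated heterozygous mouse 1 and 5 without untreated heterozygous mouse 3, the mouse whose absence also gave 102 same-sign genes; there were 116 opposite-sign genes without untreated wild-type mouse 2. Gm10260 and BC023719 passed in all 12 of these fits. With a replicate block 2 genes passed in the average and 925 reached an unadjusted p under 0.05. Replicate numbers are only names here, since 3 of 12 libraries correlated best with their own number, and the cause of the other changes was not tested. Summing near-identical copies ended both calls. Among 171 named genes the sign turned in 5 of 1701 values under the other settings and in 11 of 2052 with a library left out, in no case for a called value; among 42 list medians it turned in 22 of 420 and 55 of 504. At 3 mice per group the median standard error within a genotype was 0.41, which limits what could be detected.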
